A study of Mus musculus with 4 samples.

Results

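The 611 genes described here share no exon base with any gene of the opposite DNA strand and kept their counts in replicate 4, the library in which most genes of that kind had few. They were drawn from 4 RNA-seq libraries of T-helper 2 cells, the helper T cells that secrete interleukin-4 and direct type 2 immunity, taken as primary cells from C57BL/6NJ mice. The libraries are biological replicates 1 to 4 of 1 group, with no treatment, no second genotype and no control. The labels give them the same donor record, so a p-value speaks of the spread between these 4 samples alone, part of which may be technical. Age and sex were not recorded, and no promoter, Cre or clone is involved.

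A gene was eligible when it lay on an autosome, had no exon base in common with a gene on the other strand and had at least 10 counts in each of replicates 1 to 3. Of 50600 genes in the tables, 46381 were autosomal, 38380 of these were unpaired in this sense, and 2041 were eligible. CPM is the count of a gene scaled to a library total of 1000000, with the counts of CT010467.1, a ribosomal RNA gene, left out of the total. The ratio of a gene is its CPM in replicate 4 over the mean of its CPM in replicates 1 to 3, and genes with a ratio of at least 0.8 were kept. The background share is 29.9%, since 611 of the 2041 eligible genes passed. The ratio chose the members, so it is given as a description and carries no test.

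In a strand-specific library each fragment is assigned to 1 DNA strand. Antisense transcripts, read from the strand opposite a gene, often start inside introns or run on past the end of a neighbouring gene. Where counts are collected on 1 strand, a gene annotation there receives the fragments of any transcript that crosses it on that strand, whether or not that transcript belongs to the gene. In these libraries mt-Nd6, which is encoded on the light strand of mitochondrial DNA, had more counts than all 12 heavy-strand coding genes summed in 4 of 4 libraries. A count below is therefore a count on the strand selected and is not read as expression of the named gene.

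Some members are short single-block models whose letters show what lies under a count. TEC is the GENCODE class for models that await experimental proof. In 4 of the 24 TEC members (16.7%) the first 50 bases hold TTTATT, which is the reverse complement of the polyadenylation signal AATAAA. Among all 3215 TEC genes of GENCODE M21, 5.69% do. These 4 are shown because a transcript read from the other strand would meet AATAAA there. Sequences are from the GENCODE M21 transcripts (GRCm38), read 5′ to 3′ on the strand of the gene, with TTTATT in capitals.
Gm45819 (chr7:110119990-110120039, plus strand): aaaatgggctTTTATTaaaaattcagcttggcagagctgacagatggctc
Gm38244 (chr3:106478283-106478332, plus strand): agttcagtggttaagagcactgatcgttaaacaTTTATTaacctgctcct
Gm45453 (chr8:22410457-22410506, plus strand): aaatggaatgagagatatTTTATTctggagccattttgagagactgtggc
Gm38384 (chr8:105633750-105633799, plus strand): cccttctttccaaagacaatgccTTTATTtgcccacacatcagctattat

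The search used the longest M21 transcript of each gene and the letters on the gene's own strand. The signal itself, AATAAA, was in the last 50 bases of 6 of 24 TEC members (25%), beside 21.7% of all TEC genes. It was in the last 50 bases of 17 of 37 members of the antisense class (45.9%), beside 33.4% of all genes of that class. For lincRNA members AATAAA was in the last 50 bases of 5 of 17 (29.4%), beside 31.4% of all lincRNA genes. For processed pseudogenes it was 0 of 22, beside 1.58%. TTTATT in the first 50 bases was found in 2 of 37 antisense members (5.41%), 1 of 17 lincRNA members (5.88%) and 0 of 22 processed pseudogenes. Among all genes of these types the shares were 2.03%, 2.22% and 0.949%. In the last 50 bases TTTATT was found in 0 of 24 TEC members, beside 4.54% of all TEC genes. AATAAA in the first 50 bases was found in 2 of 24 TEC members (8.33%), beside 3.76% of all TEC genes. A match is a description of the letters and does not place a transcript end.

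Both eligible small nuclear RNA genes were members, and both lie wholly inside the span of a protein-coding gene on the other strand. Small nuclear RNAs of the spliceosome have many near-identical copies in the genome, so the placing of these fragments is uncertain. The whole transcripts are shown because their letters are of the U6 kind (Gm23851) and the U4 kind (Gm26254).
Gm23851 (chr6:124964285-124964387, plus strand): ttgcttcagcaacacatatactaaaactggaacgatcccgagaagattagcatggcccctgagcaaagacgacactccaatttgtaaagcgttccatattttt
Gm26254 (chr4:31998624-31998741, minus strand): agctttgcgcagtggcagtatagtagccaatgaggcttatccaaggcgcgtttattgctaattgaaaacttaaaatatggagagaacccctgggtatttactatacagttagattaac

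Gm23851 had 53, 39, 56 and 59 counts in replicates 1 to 4, and lies in the span of Cops7a, a COP9 signalosome subunit gene. Gm26254 had 21, 11, 13 and 28, inside Map3k7, the gene of the kinase TAK1. Replicate 4 was the highest of the 4 libraries in CPM for both.

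The libraries held 1804217 to 2711948 counts, and 1785767 to 1935713 without CT010467.1. That gene took 1.02% and 1.14% of the counts in replicates 1 and 2, 28.6% in replicate 3 and 14.4% in replicate 4. A count of 10 corresponds to 5.17 to 5.60 CPM, and the limit that a count of 0 allows, 3 counts, to 1.55 to 1.68 CPM. Intervals and limits cover counting error only. The lists of macrophage, B cell, granulocyte, innate and stromal markers had no eligible gene. Csf1r, a macrophage receptor gene that overlaps an exon of the other strand by 871 bases, held 983 of the 1004 macrophage-list counts in replicate 4.

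Eligible genes as a whole had a median ratio of 0.427, and 1123 of them were under 0.5. The members ran from 0.801 to 9.37 with a median of 1.11 and quartiles of 0.951 and 1.37. A ratio of at least 1 was found for 412 members, of at least 1.5 for 104 and of at least 2 for 27. Genes that do share 50 or more exon bases with the other strand, which the choice left out, had a median ratio of 0.993, and 79.0% of those 3101 genes were at 0.8 or more. When replicate 1, 2 or 3 took the place of replicate 4 in the same rule, 80.3%, 78.7% and 81.8% were kept, of 1283, 1284 and 1267 genes. Those sets need at least 10 counts in replicate 4, which removes genes that had few counts there, so the shares are not over the 2041 genes.

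**Figure D1:**
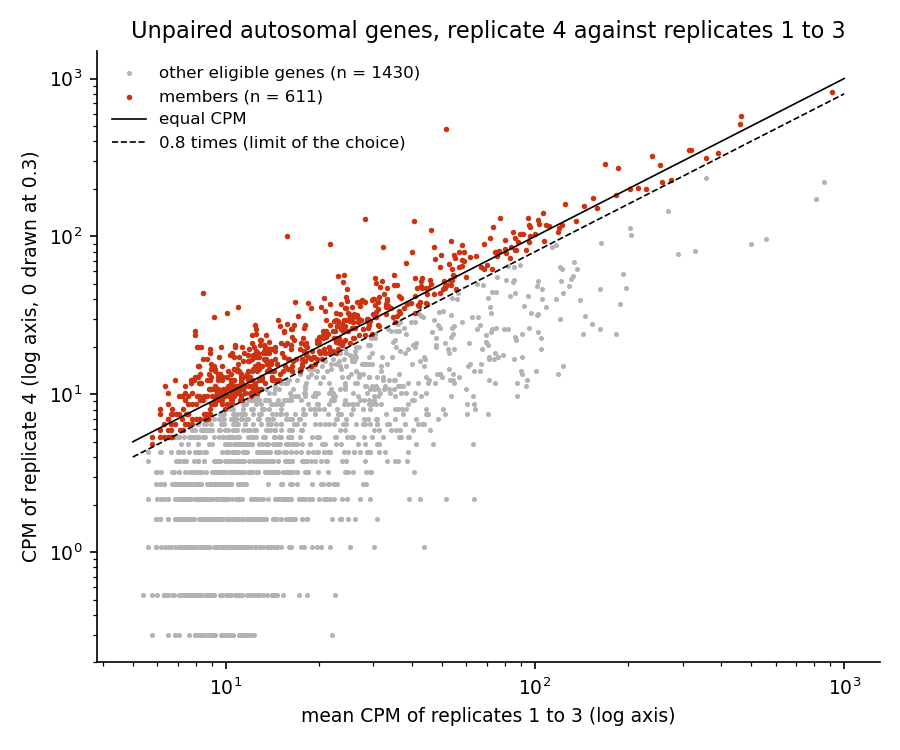
CPM of replicate 4 (vertical, log axis) against the mean CPM of replicates 1 to 3 (horizontal, log axis) for the 2041 eligible genes, with members in red and the other 1430 in grey. The solid line is equal CPM and the dashed line 0.8 times, the limit of the choice. The members follow the solid line over the whole range and the grey genes lie below, most of them under 0.5.

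For 258 members the CPM of replicate 4 lay above each of replicates 1 to 3, for 73 it lay below each, and for 280 it lay between them. The 95% exact conditional interval of the pooled ratio had its lower limit above the eligible median for 591 of 611 members, and at 0.8 or more for 273. The same counts chose the members, so these numbers are fixed in part by the choice, for which the interval does not allow. Counts were low for many: 83 members had under 20 counts in each of replicates 1 to 3, and 78 had a mean of at least 100. The 5 members just inside the limit were Cbx3, Zscan10, Psmd5, Gm43460 and Tatdn2, with ratios of 0.801 to 0.804. The 5 genes just outside were Pspc1, Rpl36, Sit1, Dtx1 and Gm31812, with ratios of 0.795 to 0.797. Cbx3, a heterochromatin protein gene, had 11, 14, 24 and 13 counts, and Sit1, a T cell adaptor gene, had 11, 19, 19 and 13, so the limit separates genes whose counts are alike.

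Of the 10 members with the most counts, 8 lay within 5000 bases of a gene of the other strand or in its span, near the 75.5% of all members and beside the 59.9% of eligible genes. ENSMUSG00000099597.1 (chromosome 12, 99190078 to 99191484, plus strand), a model of 1407 exon bases with no symbol, had 1617, 1689, 1759 and 1523 counts. This was 913 ± 10.6 CPM over replicates 1 to 3 (SD, n = 3) and 820 in replicate 4. Its end lies 3496 bases from the 3′ end of Foxn3, a forkhead transcription factor gene, in the M13 annotation. Espn (chromosome 4, 152120331 to 152152371, minus strand), the gene of the actin-bundling protein espin, had 801, 873, 908 and 1069 counts, and replicate 4 was the highest. Its 3′ end is 212 bases from that of Tnfrsf25, the gene of a T cell death-domain receptor that binds TL1A. Tnfrsf25 itself had 0 counts in each library, which allows up to 3.

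Gpld1 (chromosome 13, 24943152 to 24990753, plus strand), a phospholipase that cleaves lipid anchors, had 785, 858, 914 and 963 counts and ends 1730 bases from Mrs2, a mitochondrial magnesium channel gene. Mrs2 had 1, 3, 7 and 0. Gmpr2 (chromosome 14, 55672235 to 55678750, plus strand), a GMP reductase, had 745, 663, 750 and 628 and ends 333 bases from Tinf2, a telomere shelterin gene with 27, 19, 25 and 14. In both pairs the member held far more counts than its neighbour in all 4 libraries. Mroh2a on chromosome 1 had 648, 644, 689 and 586 counts, beside 18, 25, 29 and 2 for Hjurp, the centromere histone chaperone gene, 182 bases away. Sdr39u1, a dehydrogenase-family gene on chromosome 14, had 589, 571, 591 and 658, and Khnyn, 505 bases away, had 5, 4, 2 and 2.

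Adad1 (chromosome 3, 37063527 to 37121930, plus strand), a gene of testis RNA-binding protein, had 678, 503, 587 and 652 counts. Of its 3270 exon bases, 123 lie inside the span of Il2, the gene of the T cell growth factor interleukin-2. Il2 itself had 42, 35, 28 and 4 counts. Adad1 thus spanned 276 to 380 CPM with replicate 4 at 351, within the other libraries, while Il2 was lowest in replicate 4. Atg7, an autophagy gene on chromosome 6, had 433, 467, 510 and 527 counts and ends 14 bases from Vgll4, a transcription cofactor gene with 5, 3, 15 and 11.

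Ybx1 and Zc3h18 were the only 2 of the 10 with no gene of the other strand within 5000 bases. Ybx1, an abundant RNA-binding protein gene on chromosome 4, had 433, 498, 603 and 421 counts and a ratio of 0.823 (0.734 to 0.914). Zc3h18, a zinc finger gene of RNA export and decay on chromosome 8, had 413, 463, 559 and 410 and a ratio of 0.856 (0.763 to 0.953). For both, replicate 4 was the lowest library in CPM. All 9190 exon bases of Zc3h18 lie inside the span of another gene or genes on its own strand, without touching their exons.

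**Figure D2:**
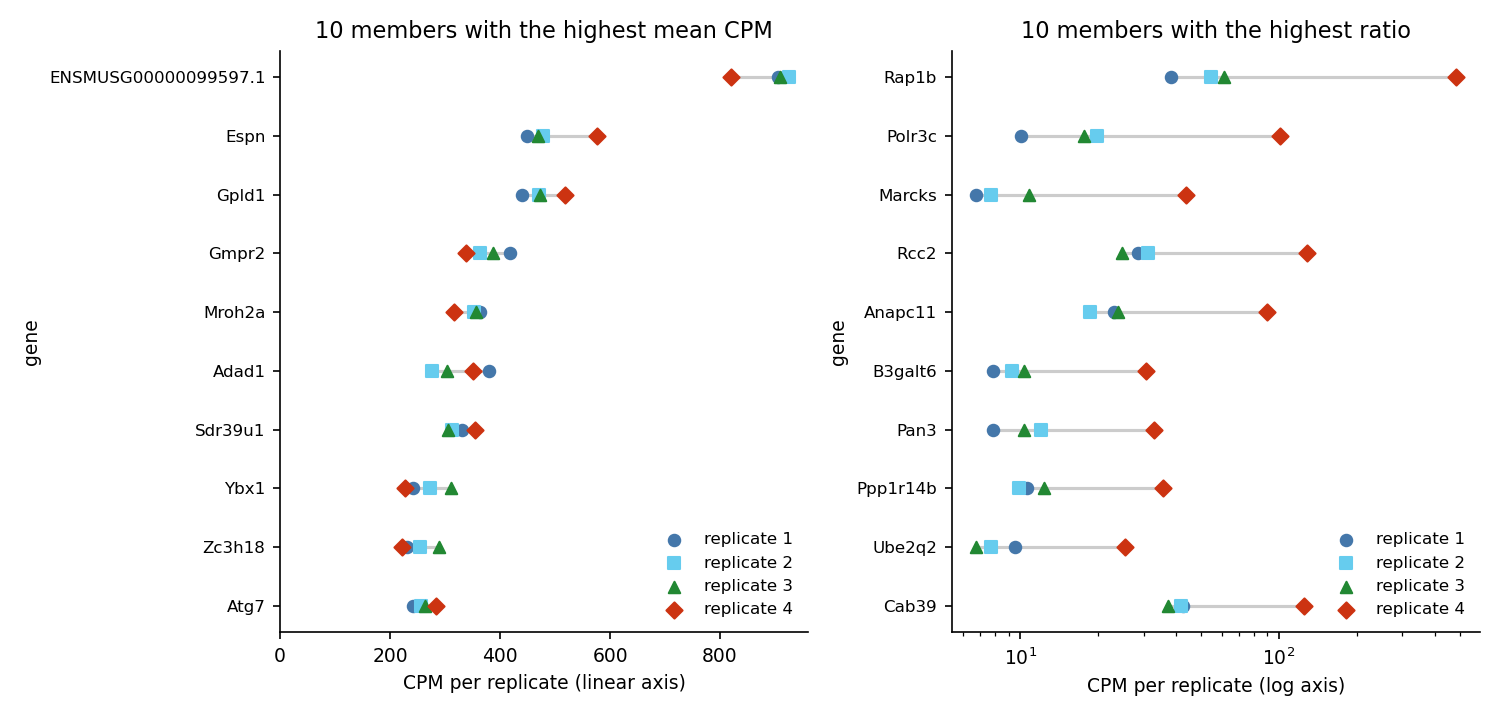
CPM in each of the 4 replicates for the 10 members with the highest mean CPM of replicates 1 to 3 (left, linear axis) and the 10 with the highest ratio (right, log axis), with a grey line over the range of each gene. On the left replicate 4 lies among or near the other libraries, from 221 CPM for Zc3h18 to 820 for ENSMUSG00000099597.1, and on the right it lies above all of them in each gene.

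The 10 members with the highest ratio had more counts in replicate 4 than in any other library, which the choice by ratio fixes. Rap1b (chromosome 10, 117813871 to 117846035, minus strand), a small GTPase of cell adhesion, had 68, 100, 119 and 895 counts. The ratio was 9.37 (95% exact conditional interval 8.15 to 10.7), the highest of all eligible genes, and no gene of the other strand lies within 5000 bases. Polr3c (chromosome 3, 96711490 to 96727628, minus strand), an RNA polymerase III subunit, had 18, 36, 34 and 187, a ratio of 6.38 (4.90 to 8.27). Its 5′ end is 36 bases from that of Rnf115. Marcks, a protein kinase C substrate gene, had 12, 14, 21 and 81 counts.

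Rcc2, a gene of mitotic chromosome regulation, had 51, 57, 48 and 239 counts, and Anapc11, a subunit of the anaphase-promoting complex, had 41, 34, 46 and 167. Cab39, a scaffold of the kinase LKB1, had 76, 76, 72 and 232. B3galt6, Pan3, Ppp1r14b and Ube2q2 had ratios of 3.18 to 3.35 on 47 to 66 counts in replicate 4. These 10 genes lay in 3 of the 4 position classes given below: 4 within reach of the 3′ end of an opposite gene, 2 head to head with one, 4 with none near, and none in a span.

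Gm28438, a pseudogene of 345 bases on chromosome 1, had 49, 60, 71 and 158 counts and was chosen for mention after its values were seen. It holds an exact match of 342 bases to the mitochondrial gene mt-Nd3, so its fragments cannot be told apart from those of mt-Nd3 by these letters.

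Members were placed against genes on the other strand in a fixed order: in a span, then tail to tail, then head to head, then none near. A gene that met several of these definitions was counted under the first, even where another neighbour was nearer. A member is in a span when exon bases of it lie inside that gene from its first to its last base, without touching its exons. It is tail to tail when the 3′ ends of both genes lie within 5000 bases of each other, and head to head when the 5′ ends do. In a span lay 146 of 611 members (23.9%), beside 11.4% of all eligible genes and 4.72% of the 1123 with a ratio under 0.5. Tail to tail were 251 members (41.1%), beside 33.5% and 28.0%, and head to head 64 (10.5%), beside 14.9% and 17.1%. No such gene was near for 150 members (24.5%), for 40.1% of all eligible genes and for 50.1% of the genes under 0.5.

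Read the other way, 62.7% of the 233 eligible genes in a span were members, 36.7% of the 684 tail to tail, 21% of the 305 head to head and 18.3% of the 819 with none near, around the background of 29.9%. The share was 76.0% for the 125 genes whose exon bases all lay inside a span. Among tail-to-tail genes it was 40.3% at a gap of up to 1000 bases and 34.4% from there to 5000. The median ratio of eligible genes followed the same order, at 0.951 in a span, 0.567 tail to tail, 0.342 head to head and 0.304 with none near. The reach of 5000 bases sets these shares in part: with 1000 bases 17.7% of members were tail to tail, and with 10000 bases 48.4%.

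**Figure D3:**
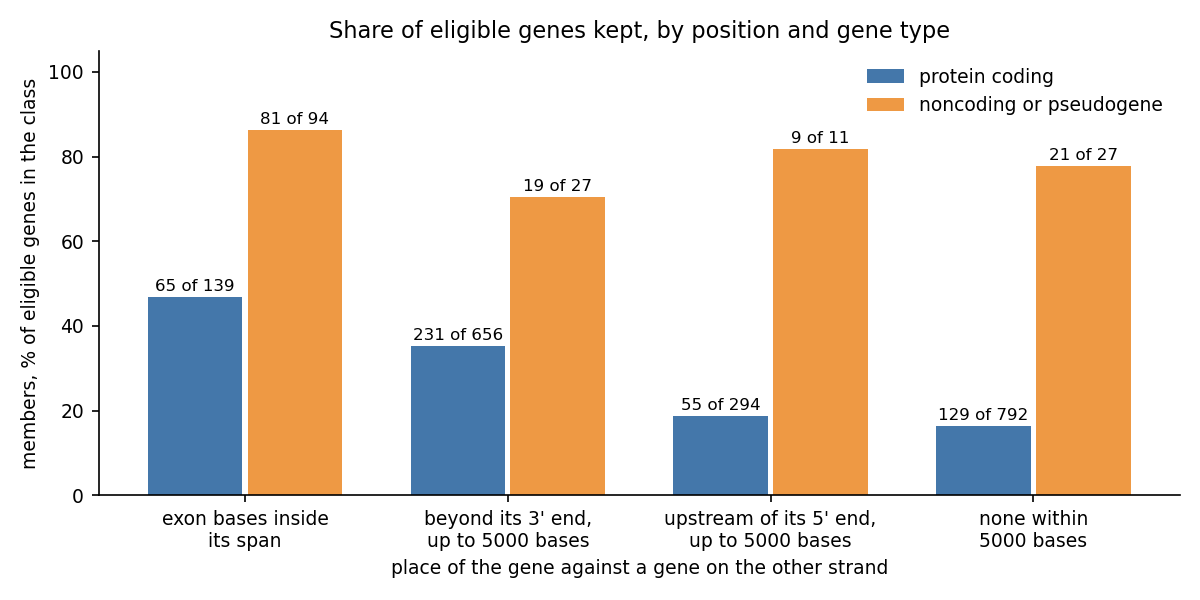
Members as a percentage of the eligible genes in each position class, for protein-coding genes (blue) and for noncoding genes and pseudogenes (orange), with the counts above each bar. Protein-coding genes run from 46.8% in a span to 16.3% with no opposite gene near, and noncoding genes stay between 70.4% and 86.2% in all 4 classes.

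Gene type divided the eligible genes more than position did. Noncoding genes and pseudogenes gave 130 members of 159 eligible genes (81.8%), and protein-coding genes 480 of 1881 (25.5%). The gene with no M21 entry, ENSMUSG00000099597.1, makes up the 611. Among noncoding types, 37 of 39 antisense genes were members, 24 of 29 TEC genes, 22 of 25 processed pseudogenes, 17 of 27 lincRNAs and 13 of 17 processed transcripts. Among protein-coding genes the order of positions was the same as in the whole set, at 46.8%, 35.2%, 18.7% and 16.3%. Genes of a single exon block were members in 80 of 101 cases (79.2%), and members had a median of 7 blocks and 3422 exon bases beside 11 and 4213 for all eligible genes.

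The share kept also moved with the count: 25.1% at a mean of 10 to 20 counts, 30.7% at 20 to 50, 33.2% at 50 to 100 and 38.1% above 100. The part of count level in the other splits was not tested.

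Noncoding members inside T cell genes were named by their host after their values were seen, beside the leading ones chosen by level. Gm43980 (chromosome 6, 49254851 to 49256462, plus strand), a TEC model wholly inside the splicing regulator gene Tra2a, had 490, 358, 478 and 603 counts, while Tra2a had 17, 28, 30 and 3. Replicate 4 was the highest library for the model and the lowest for its host. Gm16364 and Gm16365, both antisense genes with exon bases inside Fyn, the T cell receptor kinase gene, had 60, 42, 56 and 54 counts and 19, 26, 28 and 28. Fyn had 23, 25, 29 and 8. Gm37856, wholly inside the span of Cd247 (the CD3 zeta chain gene), had 18, 20, 32 and 45. Cd247 has 3007 of its exon bases paired with a gene of the other strand, and had 1204, 1148, 1310 and 1073.

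1700058P15Rik, wholly inside the actin regulator gene Vasp, had 107, 95, 92 and 98 counts, and its host had 26, 31, 36 and 18. Gm26394, a snoRNA gene inside Top2a, the DNA topoisomerase of dividing cells, had 62, 51, 59 and 51, beside 142, 208, 168 and 21 for Top2a. Gm15777 in Coq2, a coenzyme Q synthesis gene, had 185, 139, 164 and 171, beside 2, 3, 3 and 1. Vasp and Top2a were lowest in replicate 4, in CPM, and so was Gm26394. How far a member can be low in replicate 4 is limited by the choice.

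Protein-coding members also lay in spans. Fndc9, wholly inside the actin regulator gene Cyfip2, had 214, 205, 247 and 210 counts beside 22, 41, 23 and 7 for Cyfip2. Cd27, a costimulatory receptor gene, and Tapbpl, a peptide editor of class I antigen presentation, both lie inside Vamp1. They had 34, 29, 32 and 58 counts and 36, 30, 39 and 65, with replicate 4 highest in both. Gsdme, the gasdermin E gene, had 363, 269, 385 and 342 counts, and 4628 of its 12742 exon bases lie in the span of Mpp6.

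Gm20388, a protein-coding model on chromosome 8, spans 4 members: Slc7a5, Mvd, Gm20735 and Dbndd1. Slc7a5, the large neutral amino acid transporter gene that activated T cells use, had 23, 28, 31 and 55 counts, and Mvd, an enzyme of cholesterol synthesis, had 26, 21, 27 and 37. Gm20388 had 0 counts in each library, which allows up to 3. Members that share such a locus are not independent: 8 opposite genes held more than 1 member, and 51 members fell into 25 runs within 10000 bases of each other on the same strand. Among these runs are Olfr543 and Olfr544, neighbouring odorant receptor genes on chromosome 7 with 23, 27, 30 and 37 counts and 12, 12, 13 and 12.

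The genes opposite the members were set beside them, each with the counts given to its own annotation. Of the 251 tail-to-tail members, 208 (82.9%) had more counts per exon base than the opposite gene, summed over the 4 libraries, against 228 of 315 (72.4%) for genes with a ratio under 0.5. Of the 146 in a span it was 121 (82.9%), against 27 of 53 (50.9%). Over all eligible genes it was 508 of 684 (74.3%) and 171 of 233 (73.4%). These sums include replicate 4, whose counts chose the members, so part of the difference is fixed by that choice. Opposite genes had a median mean count of 8.67 in replicates 1 to 3 and of 5 in replicate 4 for tail-to-tail members, and of 14.2 and 7.50 for members in a span. Some opposite genes were themselves eligible. For tail-to-tail members 36 of 73 of these had a ratio under 0.5 and 16 were members, and for members in a span 18 of 39 and 11. For genes with a ratio under 0.5, 11 of 64 opposite genes tail to tail were also under 0.5 and 34 were members, and in a span 0 of 11 and 10. For all eligible genes, 63 of 178 opposite genes tail to tail were under 0.5 and 71 were members, and in a span 20 of 62 and 28. Of the eligible genes themselves, 1123 of 2041 were under 0.5 and 611 were members. The opposite gene was protein coding for 235 of the 251 and 123 of the 146.

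The counts rest on GENCODE M13, and in GENCODE M21, on the same build, 45 members do share exon bases with an opposite-strand gene, out of 90 eligible genes that do. M21 differed mainly on chromosomes 12 to 19, where 4964 of 16097 genes (30.8%) are not in M13, against 107 of 35132 (0.305%) on chromosomes 1 to 11. On chromosomes 12 to 19, 44 of 174 members (25.3%) share M21 exon bases. Beside them do 89 of 621 eligible genes (14.3%) and 29 of 350 genes with a ratio under 0.5 (8.29%). On chromosomes 1 to 11, 1 of 437 members does, 1 of 1420 eligible genes and 0 of 773 genes with a ratio under 0.5.

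Some of the members with the most counts are among these. All 1407 exon bases of ENSMUSG00000099597.1 lie on exons of Foxn3 in M21, and Gpld1 shares 718 bases with Mrs2, Gmpr2 919 with Tinf2 and Sdr39u1 871 with Khnyn. Ankdd1b on chromosome 13, with 135, 135, 155 and 151 counts, shares 1604 bases with Poc5, a centriole gene that had 2, 3, 4 and 0. For 11 members the largest overlap is with a gene that is not in M13 at all. They are 27.5% of the 40 eligible genes of that kind, close to the background of 29.9%. Among these, Sart1, a splicing factor gene, had 80, 56, 87 and 148 counts, and 368 of its bases are shared with AC122861.4. Cpsf2, a subunit of the polyadenylation machinery, had 197, 168, 202 and 237, and 161 of its bases are shared with Ndufb1-ps.

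Coding stretches of 2 members that overlap a gene absent from M13 are shown, since here the later annotation puts an exon of another gene on bases that code for protein. Capitals mark the coding bases shared with the exon of the other strand, and the coordinates are those of the capitals; 15 flanking bases of the coding sequence are in lower case (GENCODE M21, GRCm38).
Eml3, opposite Gm10353 (chr19:8937129-8937280, plus strand): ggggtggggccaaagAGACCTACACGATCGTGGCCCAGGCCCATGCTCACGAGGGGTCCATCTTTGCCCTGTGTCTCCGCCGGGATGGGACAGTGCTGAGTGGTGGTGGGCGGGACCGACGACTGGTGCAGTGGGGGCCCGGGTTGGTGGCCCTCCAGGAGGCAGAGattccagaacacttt
Fam149b, opposite Gm30054 (chr14:20377799-20377999, plus strand): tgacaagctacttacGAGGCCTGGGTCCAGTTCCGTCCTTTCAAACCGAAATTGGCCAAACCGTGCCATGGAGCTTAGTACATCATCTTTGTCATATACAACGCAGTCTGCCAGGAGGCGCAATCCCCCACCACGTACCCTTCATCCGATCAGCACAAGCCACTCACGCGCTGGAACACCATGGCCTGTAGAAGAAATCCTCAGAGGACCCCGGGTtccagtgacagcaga

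Eml3, a microtubule-binding protein gene, had 172, 174, 162 and 192 counts, and 246 of its exon bases lie on Gm10353 in all. Fam149b had 20, 18, 23 and 21 counts, with 382 bases on Gm30054. The stretches printed hold 152 and 201 of these shared bases.

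The Th2 and pan-T lists gave 1 member each. Of the Th2 list, 4 of 21 genes were eligible and 1 was a member. That member was Il4, with 24, 21, 25 and 26 counts, a ratio of 1.11 (0.679 to 1.76), and a 3′ end 1015 bases from that of Kif3a, a kinesin motor gene with 1, 5, 5 and 3. The other 3, Irf4, Batf and Ccr4, had ratios of 0.288, 0.372 and 0.158, and Irf4, a transcription factor of activated lymphocytes, had 115, 143, 114 and 36 counts. Of 12 eligible pan-T genes, 1 was a member: Cd6, an adhesion receptor of T cells, with 112, 76, 96 and 87 counts. Cd4, Lck and Ptprc had ratios of 0.308, 0.273 and 0.114. These shares, like all list counts here, stand beside the 29.9% of all eligible genes.

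Immediate early and AP-1 genes gave 3 members of 4 eligible genes. The eligible gene that was not a member, Myc, had 42, 42, 41 and 1 counts and a ratio of 0.0239. Fosl1, an AP-1 subunit, had 40, 48, 44 and 52 counts, Ier2 22, 23, 35 and 26, and Dusp2, a phosphatase of MAP kinases, 16, 24, 12 and 20. Fosl1 shares exon bases with Ccdc85b in M21. The interval of the ratio ran from 0.837 to 1.63 for Fosl1, from 0.598 to 1.53 for Ier2 and from 0.650 to 1.96 for Dusp2.

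Genes of protein synthesis and of the cell cycle were nearly absent. None of 14 eligible cell cycle genes, 5 glycolysis genes, 10 chaperones, 13 RNA-binding genes and 8 actin genes was a member, with median ratios of 0.139 to 0.184. In the translation list 1 of 15 was, Eif3b, an initiation factor with 74, 89, 76 and 101 counts. Among cytosolic ribosomal protein genes 1 of 56 was, Rpl27a, with 180, 172, 265 and 216 counts. Its 3′ end is 1544 bases from that of St5, and the median ratio of the 56 was 0.240.

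Mitochondrial ribosomal protein genes were opposite a member more often than they were members. Of 11 eligible, 2 were members: Mrps14, with 33, 28, 37 and 29 counts, and Mrpl43, with 23, 13, 16 and 23. Of 10 eligible genes placed by a mitochondrial ribosomal protein gene, 7 were members. Genes placed in this way are in a span or tail to tail, where 62.7% and 36.7% of eligible genes were members. Stx3, a membrane fusion gene 174 bases from Mrpl16, had 419, 379, 471 and 372 counts, and Mrpl16 had 3, 6, 1 and 2. Reep1, an endoplasmic reticulum shaping gene 2287 bases from Mrpl35, had 53, 58, 49 and 56. Copb2 and Gm37637 are both placed by Mrps22, so the 7 hold 6 such opposite genes.

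Solute carrier genes gave 14 members of 24 eligible genes, with a median ratio of 0.854 over the 24. Slc38a1, a glutamine transporter gene, had 93, 113, 126 and 102 counts, and Slc3a2, the partner chain of amino acid transporters, had 100, 86, 111 and 91. Slc16a3, a lactate exporter gene, had 63, 53, 78 and 91, and Slc16a4, of the same family, 62, 37, 54 and 72. In CPM, replicate 4 was the highest library for Slc16a3 and Slc16a4 and lay within the range of the others for Slc38a1 and Slc3a2. Zinc finger genes gave 7 of 19. The gene models with Gm numbers gave 98 of 119 and the RIKEN clone models 31 of 36, which holds many of the noncoding genes counted above.

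The members together held 36938, 35879, 39972 and 44253 counts, or 2.07%, 1.97%, 2.06% and 2.38% of the libraries. Their mean share over replicates 1 to 3 was 2.03% ± 0.0584 (SD, n = 3). The other 1430 eligible genes held 3.33%, 3.88%, 3.70% and 1.19%. Members therefore made up 38.3%, 33.6% and 35.8% of all eligible counts in replicates 1 to 3 and 66.7% in replicate 4. The choice of members by replicate 4 bears on this difference, and no test was made.

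**Figure D4:**
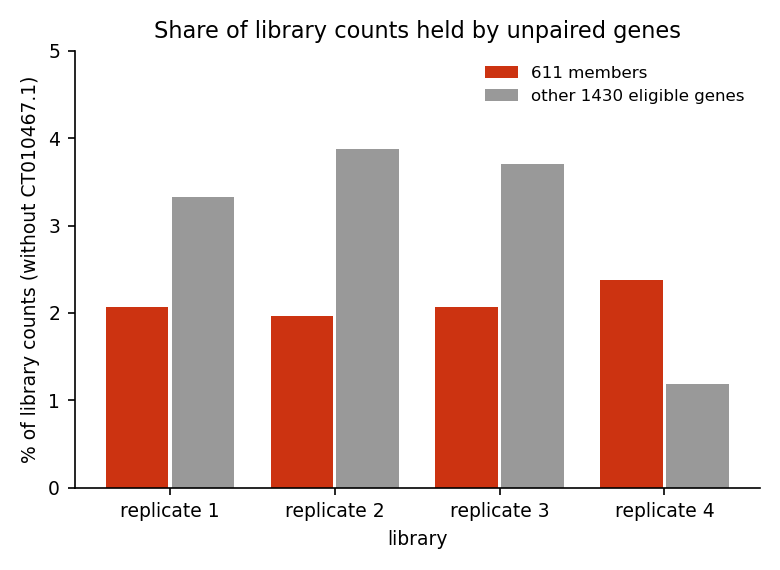
Percentage of library counts, without CT010467.1, held by the 611 members (red) and by the other 1430 eligible genes (grey) in each of the 4 libraries. The members stay between 1.97% and 2.38%, and the other genes are between 3.33% and 3.88% in replicates 1 to 3 and at 1.19% in replicate 4.

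Spread among replicates 1 to 3 was tested with edgeR's quasi-likelihood fit over 5007 genes. These libraries also entered the choice of members, by the minimum of 10 counts in each and by their mean CPM. The test is therefore not free of that choice, and eligible genes, which met the same minimum, are set beside the members. An adjusted p under 0.05 was found for 20 genes, a background of 0.399%, and for 1 of the 547 members tested. Of 1747 eligible genes tested, 2 had an adjusted p under 0.05. At an unadjusted p under 0.05 there were 23 members (4.20%), 103 eligible genes (5.90%) and 286 genes of all (5.71%). The 64 members left out had counts under the filter of the test. Over the members, the chi-square per degree of freedom was 1.69 to 1.83 for pairs within replicates 1 to 3 and 3.63 to 4.02 between replicate 4 and each of them. The latter values rest on the library that chose the members and are given as a description.

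The 1 member past the threshold was Gm23935 (chromosome 16, 11144125 to 11144181, plus strand), a microRNA-class model of 57 bases inside the span of Zc3h7a. It had 19, 19, 174 and 76 counts (edgeR adjusted p = 9.0e-18). CT010467.1 had 18450, 21080, 776235 and 312900, high in the same libraries. Whether fragments of ribosomal RNA reached Gm23935 was not tested. Its ratio of 1.11 averages over 3 libraries that differ among themselves: it was 3.89 without replicate 3, 0.816 without replicate 1 and 0.814 without replicate 2. Without replicate 3 no member passed the threshold. Gm26767, a lincRNA tail to tail with Slc25a36, had 89, 38, 100 and 101 counts and passed only in the limma fit.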

How the data were processed

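Fragments were counted by the authors, per the file headers, with featureCounts 1.4.6-p4 over exons of GENCODE M13 genes, with both ends aligned and strand setting 1. The labels give mm10 as the assembly. Each deposited table holds 1 raw count per gene with no scaling. The aligner's version is not given in the sources used here. The labels name total RNA-seq, and the protocol they link names poly(A) RNA.

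Symbols were matched for 50376 of 50600 genes. Each gene's exons were merged by the tables' coordinates and compared with genes on the other strand, first of M13 and then of GENCODE M21, which also gave gene types and sequences. Members were chosen as the opening of the text says. The members and lists were chosen with earlier results of these data known. Ratios have 95% exact conditional binomial intervals of the pooled counts. Spread among replicates 1 to 3 was tested with edgeR 4.0.16 (intercept-only robust quasi-likelihood fit, TMM factors, default expression filter, upper tail, Benjamini-Hochberg adjustment, threshold 0.05) and tested on simulated data. R 4.3.3, limma 3.58.1, DESeq2 1.42.0, Python 3.11.15, scipy 1.17.1 and pandas 2.3.3 were used. Depth was 1804217 to 2711948 counts per library. Named genes were the 10 highest by mean CPM, the 10 highest by ratio, the 5 on each side of the limit, up to 4 of each list, up to 3 of each position class and those called in the spread test. Others named, such as those placed by T cell genes, by M21 overlap or by shared loci, were chosen after their values were seen. Alternatives were other scalings, count minimums, ratio limits, reaches and tools, and leaving out each of replicates 1 to 3. The splits by gene type, count, gap and exon blocks and the comparison with M21 were added after the data were seen.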

Additional observations from a re-analysis of the deposited data

Results flagged for a closer look

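In 14 of 62 groups of 4 libraries looked at, the CPM of 1 library stood apart from the others by more than Dixon's 95% value, which chance does in about 1 in 20 groups. The genes were named by rules that use the ratio or the CPM, which bears on the flags. For the 10 members with the highest ratio, replicate 4 was the high library: Rap1b at 482 CPM, Rcc2 at 129, Cab39 at 125, Polr3c at 101, Anapc11 at 89.9, Marcks at 43.6, Ppp1r14b at 35.5, Pan3 at 32.8, B3galt6 at 30.7 and Ube2q2 at 25.3. Yipf3, a Golgi protein gene head to head with Polr1c, was also high in replicate 4, at 141 CPM beside 106 ± 1.17 in the others (SD, n = 3). Zscan10, named for its place just inside the limit, was low in replicate 4 at 15.6 CPM, beside 19.5 ± 0.255. It had only 35, 35, 38 and 29 counts, and the 95% interval of its ratio, 0.513 to 1.22, includes 1. Of the genes just outside the limit, Dtx1 was high in replicate 1 at 39.2 CPM and Pspc1 high in replicate 2 at 35.1. Causes were not tested.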

How the results depend on the processing

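No paired analysis was possible because the libraries form 1 group. The 611 members became 359 with at least 20 counts, 926 with at least 5, and 273 with the lower limit of the ratio at 0.8. With scaling on unpaired genes only there were 913, with DESeq2 size factors 755 and with TMM 692, and each of these 3 sets held all 611. Without replicate 1, 2 or 3 there were 636 to 658, of which 581 to 593 were among the 611. The share of members in a span was 19.6% with scaling on unpaired genes only and 30.8% with the lower limit at 0.8, beside 23.9%; without replicate 1, 2 or 3 it was 23.1% to 24.5%. The tail-to-tail share of 41.1% became 36.9% with at least 5 counts, 36.6% with the lower limit at 0.8, 17.7% with a reach of 1000 bases and 48.4% with 10000, and 39.5% to 40.9% without 1 replicate. Without genes that share M21 exon bases 566 members were left, with 24.9% in a span. The members' mean share of counts was 2.12%, and 1.88% with CT010467.1 in the total. The spread test called 20 genes, 2 to 14 without 1 replicate and 0 with replicate 4 included, where 268 genes had an unadjusted p under 0.05. Without replicate 3 it called 2 genes, without replicate 2 12. Of members it called 1, 2 with limma, 0 with replicate 4 included and 0 to 1 without 1 replicate. In the count of 0 without replicate 3, 29 members had an unadjusted p under 0.05, and with replicate 4 included 9 had. The causes were not tested, apart from the smaller sets that stricter limits leave by construction. Of 427 values of the ratio of 61 named genes under alternatives, 338 stayed inside the counting interval; 54 of the 61 left it with scaling on unpaired genes only, which raised the median ratio of eligible genes from 0.427 to 0.682. Few counts also limit the ratio: 83 members had under 20 counts in each of replicates 1 to 3.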
